A study of Mus musculus with 30 samples.

Results

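The 10 genes described here encode small leucine-rich proteoglycans of mouse sclera, namely Dcn (decorin), Bgn (biglycan), Aspn (asporin), Lum (lumican), Fmod (fibromodulin), Prelp, Kera (keratocan), Omd (osteomodulin), Ogn (osteoglycin) and Podn (podocan). They were chosen by name, as the transcript clusters whose only gene symbol in the annotation of the array was one of these names. Each gene had 1 such transcript cluster, which gave 10 of the 19938 genes that could be named in this way. The question was how the signal of each gene ran over postnatal weeks 1, 2, 3, 6 and 8, and which of the genes moved together.

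Small leucine-rich proteoglycans are secreted proteins built from a row of leucine-rich repeats, and many carry chondroitin, dermatan or keratan sulfate chains. They bind the surface of collagen fibrils, where they limit the width of fibrils and set the space between them. In the sclera and the cornea, which share a coat of lamellar collagen, this arrangement separates an opaque and tough tissue from a transparent one.

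RNA was taken from 1 sclera per animal in 30 mice of the albino inbred strain Balb/cJ, 6 at each age, and every animal had its own Mouse Gene 1.0 ST array. The labels give no treatment and no allele, so that age is the only stated difference between the groups. The mice came from a single family, and no source used here gives their sex. Values are log2 signals as deposited, so a difference of 1 is a change of 2-fold, and the levels of different genes were not compared because each transcript cluster has probes of its own. Ages were compared with limma over all 30 arrays, where a called gene is one that changed 2-fold or more with an adjusted p of 0.05 or less.

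The 30 arrays did not hold 30 independent measurements. The array of week 2 replicate 4 lay within 6.67e-05 of the mean of week 2 for each of 35556 transcript clusters, and the mean of week 6 replicates 4 and 6 lay within 5e-05 of the mean of week 6. No other single array or pair within a week had such a tie. The week 2 array was therefore left out of the means, SDs and ranges below (n = 5 in week 2 and n = 6 in the other weeks, where the 6 arrays of week 6 hold 5 independent values), whereas the limma fit held it as deposited. In a fit without that array, and with a term for the week 6 pair, all 40 calls of the 10 genes in the successive comparisons were the same. How these ties arose was not tested.

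The tissue was checked against lists of marker genes. The 10 genes of the fibroblast list had a mean signal of 10.49 ± 0.30 at week 1 and 9.45 ± 0.52 at week 2. This mean was 10.26 ± 0.31 at week 3, 9.53 ± 0.41 at week 6 and 9.68 ± 0.37 at week 8. RNA of other tissues was measured in the same samples, and it moved between the same weeks. The 14 striated muscle genes ran from 9.51 to 11.68 in week 1, from 6.14 to 7.81 in week 2, from 6.10 to 7.94 in week 3, from 9.05 to 10.78 in week 6 and from 9.62 to 11.14 in week 8. The 11 photoreceptor genes that were measured ran from 7.64 to 10.54 in week 1 and from 5.01 to 6.62 in week 2, and the 10 genes of surface epithelium, with the corneal keratin Krt12 among them, ran from 7.78 to 9.72 in week 1 and from 10.41 to 11.26 in week 2. The 7 pigment epithelium genes had means of 9.08 and 5.67 in weeks 1 and 2, and of 7.57, 8.50 and 7.26 in weeks 3, 6 and 8. In this bulk tissue, fewer cells of a type and less RNA per cell cannot be told apart, and the part of these other tissues in the results below was not tested.

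The spread of signals within an array also differed between weeks. The mean interquartile range was 2.70 and 2.36 for the arrays of weeks 1 and 2, and 2.75, 2.44 and 2.53 for those of weeks 3, 6 and 8. The comparisons were therefore also fitted with this range as a covariate, which is called the array spread below. Its part in the changes cannot be told apart from that of age.

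Each of the 10 genes differed between the 5 ages by the moderated F test of limma, with adjusted p values from 2.27e-07 for Lum to 0.00226 for Fmod. Over all transcript clusters tested, 91.3% passed that test, so that 10 of 10 is a count near the background. The size and the timing of the changes are therefore described gene by gene. The means of Lum, Ogn, Kera, Aspn, Dcn and Omd were higher in weeks 1 and 6 than in weeks 2, 3 and 8. Weeks 1 and 3 were near each other for Dcn (12.07 and 11.90) and Omd (5.16 and 5.14), and week 3 was the lowest week of Kera. The mean of the pigment epithelium list was likewise higher in weeks 1 and 6 than in the other weeks. Fmod and Prelp reached their highest mean in week 3.

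Of the genes in the 2 patterns just named, Kera, Ogn, Aspn and Lum had a called fall from week 6 to 8. Prelp and Fmod peaked in week 3. The sequences before the start sites of 5 of these genes are shown, as Lum had no entry. Each is the 250 bases upstream of the annotated start in RefSeq on the build GRCm38.p6, written along the strand of the gene, and 8 of the 10 genes had an entry. Capitals mark matches on either strand to the core letters of the TATA box (TATAAA), of the GC box (GGGCGG) and of the CCAAT box. The Kera sequence lies at chr10:97606955-97607204 on the plus strand, that of Ogn at chr13:49607765-49608014 on the plus strand, and that of Aspn at chr13:49544193-49544442 on the plus strand. Those of Prelp and Fmod lie at chr1:133921402-133921651 on the minus strand and at chr1:134037004-134037253 on the plus strand.
Kera: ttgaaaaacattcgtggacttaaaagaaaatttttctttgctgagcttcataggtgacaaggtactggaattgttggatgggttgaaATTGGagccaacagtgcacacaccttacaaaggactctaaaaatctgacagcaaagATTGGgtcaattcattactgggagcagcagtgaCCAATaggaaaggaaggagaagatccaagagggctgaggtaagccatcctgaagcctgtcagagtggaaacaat
Ogn: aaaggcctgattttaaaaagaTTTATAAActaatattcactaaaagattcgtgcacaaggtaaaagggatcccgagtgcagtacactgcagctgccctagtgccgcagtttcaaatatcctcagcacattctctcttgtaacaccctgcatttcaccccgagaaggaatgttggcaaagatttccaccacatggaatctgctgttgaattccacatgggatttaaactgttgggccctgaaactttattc
Aspn: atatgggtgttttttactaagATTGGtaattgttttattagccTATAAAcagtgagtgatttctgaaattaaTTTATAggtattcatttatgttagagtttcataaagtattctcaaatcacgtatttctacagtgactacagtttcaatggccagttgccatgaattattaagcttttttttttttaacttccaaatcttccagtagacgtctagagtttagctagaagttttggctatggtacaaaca
Prelp: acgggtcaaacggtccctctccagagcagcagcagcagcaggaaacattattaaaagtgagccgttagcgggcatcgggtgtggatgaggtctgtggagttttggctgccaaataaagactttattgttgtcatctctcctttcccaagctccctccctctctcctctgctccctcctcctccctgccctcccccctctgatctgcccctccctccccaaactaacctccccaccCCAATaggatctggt
Fmod: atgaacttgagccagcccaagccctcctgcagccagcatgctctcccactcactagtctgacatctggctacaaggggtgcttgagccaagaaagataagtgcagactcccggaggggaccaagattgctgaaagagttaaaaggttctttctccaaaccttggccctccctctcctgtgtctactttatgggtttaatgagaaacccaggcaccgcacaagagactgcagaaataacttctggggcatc

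In these windows the letters CCAAT occurred at 3 positions for Kera and at 1 each for Aspn and Prelp. They were present in 33.8% of all 32851 promoters of the same length. TATAAA was read on both strands from the Ogn window, where the matches overlap, and from the Aspn window, and 12.4% of all promoters held it. Relative to the start site these matches began at -227 and -229 for Ogn and at -207 and -178 for Aspn. Whether any of them acts as a TATA box was not tested. GGGCGG was in none of the 5 windows and in 32.7% of all promoters. The share of G and C was 30.0% for Aspn, 42.0% for Ogn and 42.4% for Kera, against 51.2% for Fmod and 55.6% for Prelp, with a median of 52.4% over all promoters. The letters were not shared by all genes of a pattern. In the annotation, Dcn, Lum, Kera and Epyc are neighbours on chromosome 10, and Ecm2, Aspn, Omd and Ogn are neighbours on chromosome 13. Optc and Prelp are neighbours on chromosome 1, and Fmod lies near Prelp there.

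**Figure D1:**
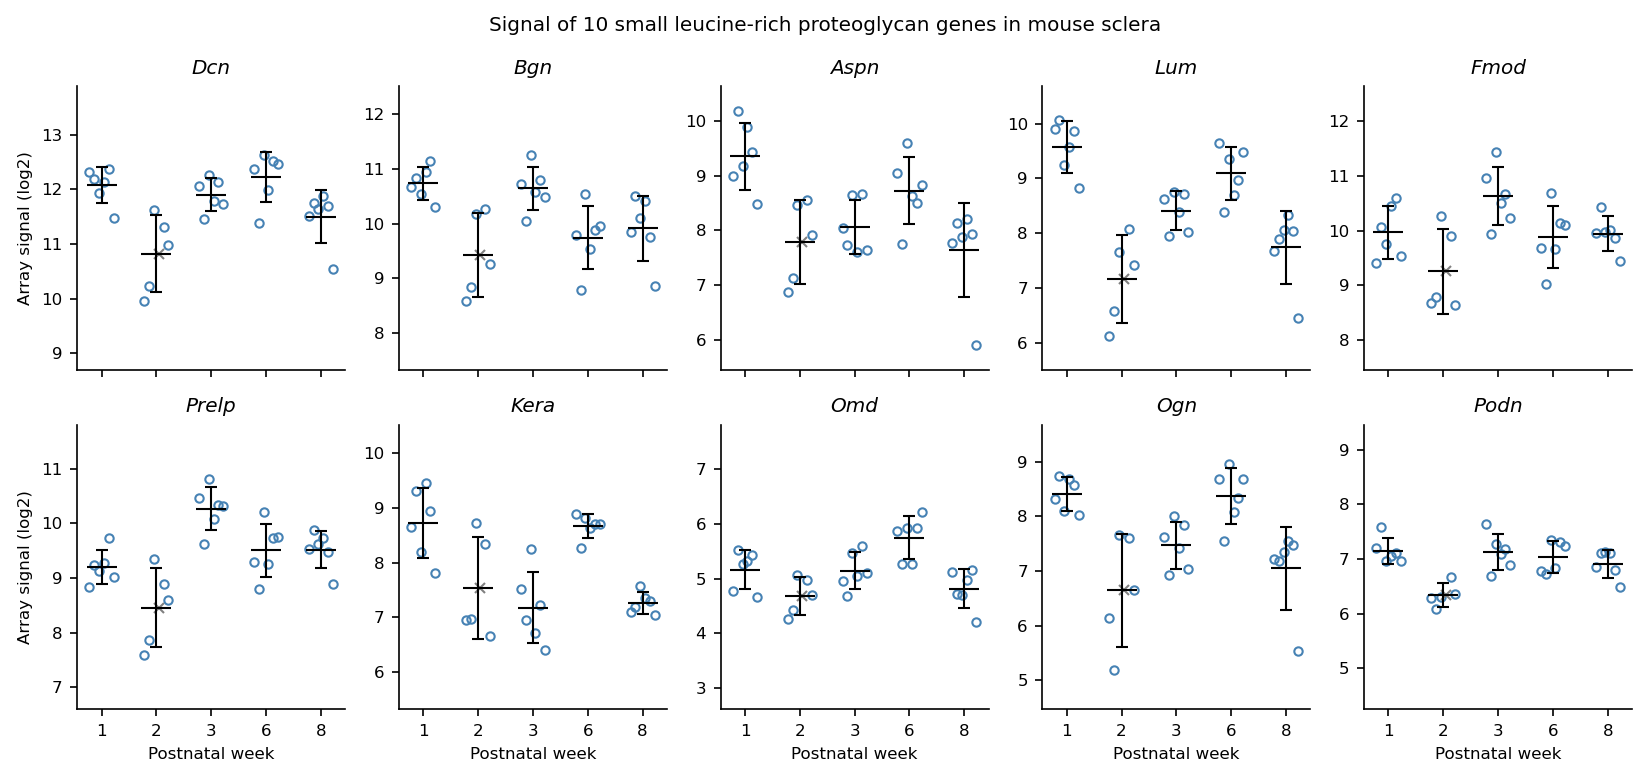
Log2 array signal (vertical axis) of the 10 proteoglycan genes against the age in weeks (horizontal axis). Each open circle is an array, black bars are the mean and SD, the grey cross is the week 2 array that equals its week mean and is not counted, and each panel spans the same number of log2 units. The means of Lum, Ogn, Kera, Aspn, Dcn and Omd are higher in weeks 1 and 6 than in weeks 2, 3 and 8. Prelp and Fmod are highest in week 3.

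Class I of the family holds decorin, biglycan and asporin. Decorin binds collagen fibrils and transforming growth factor beta. Its gene, Dcn, ran from 11.48 to 12.37 in week 1 (median 12.16), from 9.95 to 11.61 in week 2 (median 10.98), from 11.45 to 12.27 in week 3 (median 11.92), from 11.39 to 12.63 in week 6 (median 12.41) and from 10.54 to 11.87 in week 8 (median 11.67). Week 2 held the lowest arrays, and its range overlapped with those of the other weeks. Dcn fell by 1.25 from week 1 to 2 on the log2 scale (SE 0.25, 2.38-fold, adjusted p = 8.56e-05) and rose by 1.08 from week 2 to 3 (SE 0.25, 2.11-fold, adjusted p = 0.000904). Without week 2 replicate 1 or replicate 2, the second change was 0.91 or 0.96 and was no longer called. Neither change was called with the array spread as a covariate, at -0.69 and 0.43. The later changes, 0.32 from week 3 to 6 and -0.72 from week 6 to 8, were below the fold threshold.

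Biglycan is the nearest relative of decorin and is encoded on the X chromosome. Bgn ran from 10.30 to 11.15 in week 1 (median 10.76), from 8.59 to 10.26 in week 2 (median 9.27), from 10.05 to 11.25 in week 3 (median 10.66), from 8.78 to 10.55 in week 6 (median 9.83) and from 8.86 to 10.51 in week 8 (median 9.98). All week 2 arrays were below all week 1 arrays. The gene fell by 1.31 from week 1 to 2 (SE 0.29, 2.48-fold, adjusted p = 0.000249) and rose by 1.22 from week 2 to 3 (SE 0.29, 2.33-fold, adjusted p = 0.00109). Neither was called with the array spread as a covariate, at -0.76 and 0.59. Its change from week 3 to 6 was -0.90 (adjusted p = 0.00937), under the fold threshold, and it was called lower without week 3 replicate 2, at -1.02, or without week 6 replicate 3, at -1.06.

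Asporin binds collagen, and it binds calcium through a run of aspartate residues. Aspn ran from 8.48 to 10.18 in week 1 (median 9.31), from 6.88 to 8.55 in week 2 (median 7.92), from 7.60 to 8.67 in week 3 (median 7.90), from 7.75 to 9.60 in week 6 (median 8.72) and from 5.91 to 8.21 in week 8 (median 7.91). Its change from week 2 to 3 was 0.27 (adjusted p = 0.545), so that it lacked the called rise of Dcn and Bgn in that step. Aspn fell by 1.57 from week 1 to 2 (SE 0.36, 2.97-fold, adjusted p = 0.000402) and by 1.08 from week 6 to 8 (SE 0.36, 2.12-fold, adjusted p = 0.019). The first call was lost with the array spread as a covariate, at -0.80. The second was lost without week 6 replicate 3, at -0.91 with an adjusted p of 0.056, and without week 8 replicate 6, at -0.74 with an adjusted p of 0.0751. From week 1 to 8 it fell by 1.72 (SE 0.36, adjusted p = 0.000292), and the arrays of these weeks did not overlap.

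Class II holds lumican, fibromodulin, Prelp, keratocan and osteomodulin, of which lumican and keratocan carry keratan sulfate in the cornea. Lumican is needed for regular fibril spacing and corneal transparency. The Lum signal of week 1 ran from 8.83 to 10.07 (median 9.72). In week 2 it was 6.11, 6.58, 7.65, 8.08 and 7.41 in replicates 1, 2, 3, 5 and 6. It ran from 7.96 to 8.76 in week 3 (median 8.51), from 8.39 to 9.65 in week 6 (median 9.16) and from 6.45 to 8.33 in week 8 (median 7.97). All arrays of weeks 2, 3 and 8 lay below all arrays of week 1. Lum fell by 2.41 from week 1 to 2 (SE 0.30, 5.33-fold, adjusted p = 1.31e-07), the largest change among the 40 successive changes of the 10 genes. It rose by 1.25 from week 2 to 3 (SE 0.30, 2.37-fold, adjusted p = 0.00141) and fell by 1.35 from week 6 to 8 (SE 0.30, 2.55-fold, adjusted p = 0.000824), with no overlap between the arrays of weeks 6 and 8. With the array spread as a covariate the rise was 0.36 (adjusted p = 0.696) and was not called. The step from week 3 to 6 was 0.68 (adjusted p = 0.0575) and was not called, but with that covariate it was called, at 1.38.

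Keratocan is known for its place in the corneal stroma, where its loss flattens the cornea. Kera ran from 7.82 to 9.45 in week 1 (median 8.80), and in week 2 it stood at 6.95, 6.97, 8.71, 8.34 and 6.66 in replicates 1, 2, 3, 5 and 6. Its ranges in the later weeks were 6.39 to 8.25 in week 3 (median 7.09), 8.27 to 8.89 in week 6 (median 8.71) and 7.03 to 7.58 in week 8 (median 7.24). The arrays of week 6 were all above those of weeks 3 and 8. Kera fell by 1.20 from week 1 to 2 (SE 0.31, 2.30-fold, adjusted p = 0.00122), rose by 1.49 from week 3 to 6 (SE 0.31, 2.82-fold, adjusted p = 0.000177) and fell by 1.41 from week 6 to 8 (SE 0.31, 2.66-fold, adjusted p = 0.000641). The first fall was not called with the array spread as a covariate, at -0.84. From week 2 to 3 its change was -0.35 (adjusted p = 0.344). The 6 genes of the list named for corneal keratocytes had a median change of 0.36 from week 3 to 6. From week 6 to 8 it was -0.59. The mean of the list was 8.96, 8.91 and 8.35 in weeks 3, 6 and 8, so it did not rise with Kera. The genes of the list did not move alike. Aldh1a1 changed by 0.63 and -0.70 in these steps and Chst5 by 0.43 and -0.48, all below the fold threshold. Ptgds had means of 9.60, 9.89 and 8.97 in weeks 3, 6 and 8. Those of Aldh3a1 were 12.29, 12.72 and 12.73, without a fall after week 6. From week 1 to 2 the mean of Aldh3a1 went from 10.56 to 12.88, and that of the corneal keratin Krt12 from 10.44 to 13.07. Which cells gave the signals of this list was not tested, so the list may not stand for the stroma alone. B3gnt7 went against Kera in both steps, at 6.67, 6.63 and 6.71. Angptl7 was the only one called in either step. Angptl7 fell by 2.03 from week 3 to 6 (adjusted p = 2.42e-06), and it fell by 1.37 from week 6 to 8 (adjusted p = 0.000728).

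Fibromodulin binds the same region of collagen type I as lumican. The Fmod signal ran from 9.42 to 10.59 in week 1 (median 9.91), from 8.65 to 10.27 in week 2 (median 8.79), from 9.95 to 11.45 in week 3 (median 10.59), from 9.03 to 10.69 in week 6 (median 9.90) and from 9.45 to 10.43 in week 8 (median 9.96). Each pair of successive weeks overlapped. Fmod rose by 1.37 from week 2 to 3 (SE 0.29, 2.59-fold, adjusted p = 0.000353), the only one of its 4 successive changes to be called. That call was lost with the array spread as a covariate, at 1.07 (adjusted p = 0.18). From week 1 to 8 its change was -0.02 (SE 0.29, adjusted p = 0.951).

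Prelp, whose arginine- and proline-rich end binds heparan sulfate, ran from 8.84 to 9.74 in week 1 (median 9.18). In week 2 the Prelp signal was 7.59, 7.86, 9.36, 8.90 and 8.60 in replicates 1, 2, 3, 5 and 6. It ran from 9.63 to 10.82 in week 3 (median 10.32), from 8.80 to 10.20 in week 6 (median 9.51) and from 8.89 to 9.88 in week 8 (median 9.58). Every array of week 3 was above every array of week 2. Prelp rose by 1.81 from week 2 to 3 (SE 0.25, 3.51-fold, adjusted p = 1.85e-06), the largest rise among the 10 genes in successive weeks. It was the only one of the 10 to be called higher in week 3 than in week 1, by 1.07 (SE 0.25, 2.10-fold, adjusted p = 0.000814), and that call was lost without week 1 replicate 1 or without week 3 replicate 3.

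Osteomodulin, first known from mineralized bone, binds collagen and cells. Omd ran from 4.67 to 5.51 in week 1 (median 5.29), from 4.26 to 5.07 in week 2 (median 4.69), from 4.68 to 5.60 in week 3 (median 5.08), from 5.26 to 6.22 in week 6 (median 5.89) and from 4.20 to 5.16 in week 8 (median 4.84). All arrays of week 6 were above all those of weeks 2 and 8. The signal was low: its mean over all arrays, 5.11, was above that of only 27.9% of transcript clusters and below the lowest array median, 6.151. Omd was higher in week 6 than in week 2 by 1.06 (SE 0.19, 2.09-fold, adjusted p = 5.67e-05). Its fall from week 6 to 8, -0.93 (SE 0.19, adjusted p = 0.000388), was just under the fold threshold and was called without week 6 replicate 2, without week 6 replicate 4 or without week 8 replicate 5. The values without the week 6 arrays were -1.03 each.

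Osteoglycin, also called mimecan, is the class III member and carries keratan sulfate in the cornea. Ogn ran from 8.03 to 8.74 in week 1 (median 8.45). The week 2 signals of Ogn were 6.13, 5.19, 7.65, 7.60 and 6.65 in replicates 1, 2, 3, 5 and 6. It ran from 6.93 to 8.00 in week 3 (median 7.52), from 7.55 to 8.95 in week 6 (median 8.50) and from 5.53 to 7.54 in week 8 (median 7.28). The arrays of weeks 2, 3 and 8 were all below those of week 1. Ogn fell by 1.76 from week 1 to 2 (SE 0.34, 3.39-fold, adjusted p = 5.58e-05) and by 1.32 from week 6 to 8 (SE 0.34, 2.50-fold, adjusted p = 0.00292). The first fall was -0.91 with the array spread as a covariate and was not called. Its steps between these, 0.83 from week 2 to 3 and 0.90 from week 3 to 6, were below the fold threshold. The first was called without week 2 replicate 3 or replicate 5, at 1.03 and 1.02, and the second without week 3 replicate 3 or week 6 replicate 2, at 1.01 and 1.07. From week 2 to 6 Ogn was higher by 1.73 (SE 0.34, 3.32-fold, adjusted p = 0.000138).

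Podocan, which binds collagen and was first described in the kidney, had the smallest spread of week means. Podn ran from 6.96 to 7.58 in week 1, from 6.08 to 6.68 in week 2, from 6.70 to 7.63 in week 3, from 6.72 to 7.34 in week 6 and from 6.49 to 7.13 in week 8. All week 2 arrays lay below all those of weeks 1, 3 and 6. The changes of -0.80 from week 1 to 2 (SE 0.15, adjusted p = 2.72e-05) and 0.79 from week 2 to 3 (SE 0.15, adjusted p = 9.78e-05) stayed below the fold threshold, and Podn was called in none of the 10 comparisons.

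**Figure D2:**
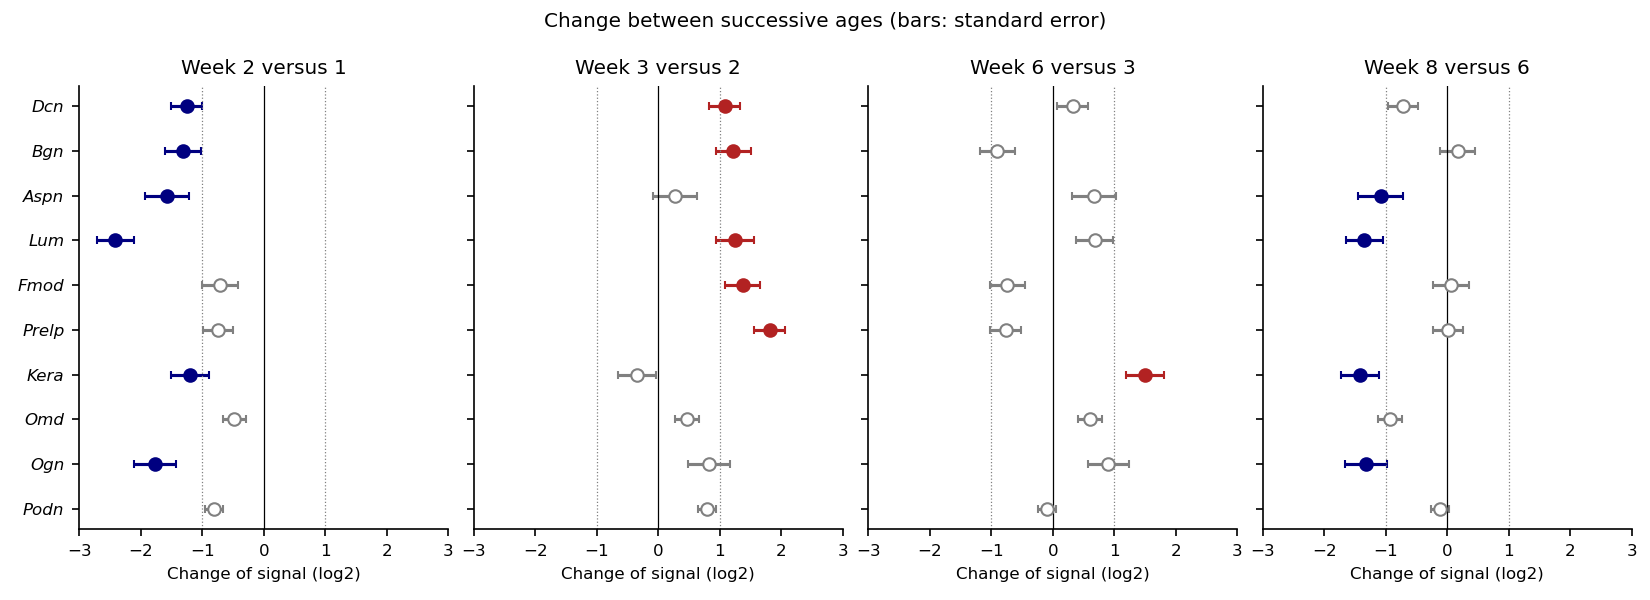
Log2 change of the 10 genes (horizontal axis) in each of the 4 successive comparisons, with the standard error from limma as a bar. Filled red and blue points are called higher and lower, open grey points are not called, and dotted lines mark a fold change of 2. No gene is called higher in week 2, and none is called lower in week 3.

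Counted over the genes, week 2 versus 1 had 0 of 10 higher and 6 of 10 lower, namely Dcn, Bgn, Lum, Ogn, Kera and Aspn. Over all transcript clusters, 3.82% were called higher and 7.73% lower in that comparison, and the median change was -1.22 for the 10 genes against 0.06 for all. This step was also where the other tissues moved: 14 of 14 striated muscle genes, 11 of 11 photoreceptor genes and 6 of 7 pigment epithelium genes (Rlbp1 is in both lists) were called lower, 10 of 10 genes of surface epithelium were called higher, and 4 of 10 fibroblast genes were called lower. With the array spread as a covariate, 1 gene, Lum, was called lower in week 2 versus 1 in place of 6, at -1.65 (adjusted p = 0.00428). Without a fold threshold, 10 of 10 were lower. The shares above hold for calls with the threshold, so that this last count has no background beside it.

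In week 3 versus 2, 5 of 10 were called higher (Dcn, Bgn, Lum, Fmod and Prelp) and 0 lower, against 2.67% and 1.72% of all transcript clusters. The median change was 0.95 for the 10 genes and -0.05 for all. In the same step 2 of 10 fibroblast genes, 8 of 11 photoreceptor genes and 6 of 7 pigment epithelium genes were called higher, whereas none of the muscle and none of the surface epithelium genes was called. With the array spread as a covariate, 1 gene, Prelp, was called higher, at 1.38 (adjusted p = 0.0395).

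Week 6 versus 3 gave 1 of 10 higher, Kera, and 0 lower, against 3.90% and 3.68%. The median change was 0.46, against 0.09 over all. With the array spread as a covariate, 4 genes were called higher, namely Kera at 1.83, Ogn at 1.69, Lum at 1.38 and Aspn at 1.37. All 14 muscle genes and 3 of 7 pigment epithelium genes were called higher in this step, and 2 of 10 fibroblast genes and 6 of 8 endothelial genes were called lower.

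Week 8 versus 6 had 0 of 10 higher and 4 lower, namely Lum, Ogn, Kera and Aspn, against 1.11% and 2.67% of all transcript clusters. The medians were -0.83 for the 10 genes and -0.07 for all. In that step 3 of 14 muscle genes were called higher and 5 of 7 pigment epithelium genes lower, and no fibroblast gene was called in either direction. Week 8 replicate 6 was the lowest array of its week for all 10 genes, and also for 8 of 13 cell type lists, among them fibroblast at 9.03, pigment epithelium at 5.43, endothelium at 6.52, smooth muscle at 7.05 and photoreceptor at 5.63. The same array was the highest of its week for surface epithelium, at 11.30. Without that array Lum, Ogn and Kera were still called lower, at -1.09, -1.02 and -1.37, and Aspn was not, at -0.74. Without week 6 replicate 3, Aspn was not called either.

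Over longer spans, week 8 versus 1 had the same 4 genes, Lum, Ogn, Kera and Aspn, lower and none higher, against 4.80% and 2.40% of all transcript clusters. Week 6 versus 1 had none in either direction, against 2.52% higher and 3.61% lower. The lack of a call does not show that the levels were equal: the change of Bgn in that span was -0.99 (SE 0.29, adjusted p = 0.00497), at a fold of 1.99. In that span 1 gene was called lower when week 1 replicate 1, 3 or 6 or week 6 replicate 1, 3, 5 or 6 was left out. Week 3 versus 1 had Prelp higher and Lum, Kera and Aspn lower, against 2.71% and 4.45%.

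In week 6 versus 2, 6 of 10 were higher (Dcn, Lum, Prelp, Ogn, Kera and Omd) and none lower, against 4.92% and 1.80%. Week 8 versus 2 had Prelp alone higher, by 1.06 (SE 0.25, adjusted p = 0.00193), and none lower, against 1.27% and 0.824%. That call was lost without week 2 replicate 1, without week 2 replicate 2 or without week 8 replicate 2. Week 8 versus 3 had none in either direction, against 2.45% higher and 2.67% lower. These comparisons share arrays, so their counts are not independent of each other.

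Single arrays tended to be low or high for many of the genes at once. Week 6 replicate 2 was the lowest of its week for 9 of 10 genes, and week 3 replicate 2 and week 1 replicate 6 for 8 of 10. The fibroblast list was also lowest of its week on these arrays, at 8.85, 9.79 and 10.10, and so were lists of other tissues. Of 13 cell type lists, week 6 replicate 2 was the lowest array for 9, among them pigment epithelium at 7.59, endothelium at 7.36, smooth muscle at 7.93 and striated muscle at 9.05. Week 1 replicate 6 was the lowest for 5 lists, among them striated muscle at 9.51, and week 3 replicate 2 for 4. Week 3 replicate 3 and week 6 replicate 3 were the highest for 7 of 10. The difference of each gene from the fibroblast list on the same array was followed over the weeks, of which only the change can be read and not the level. The means of Bgn varied by least, between -0.02 ± 0.28 in week 2 and 0.39 ± 0.11 in week 3. Kera ran from -3.08 ± 0.50 in week 3 to -0.86 ± 0.26 in week 6, and Ogn from -2.80 ± 0.57 in week 2 to -1.16 ± 0.21 in week 6. Prelp went from -1.29 ± 0.19 in week 1 to 0.02 ± 0.17 in week 3, and it was -0.02 ± 0.14 in week 6 and -0.16 ± 0.08 in week 8. Week 6 was the week in which the means of Dcn, Lum, Kera, Ogn, Aspn, Omd and Podn stood highest relative to the list. The list itself fell from 10.26 in week 3 to 9.53 in week 6, which raises every difference in that step. By their own signal, only Dcn and Omd of these genes had their highest mean in week 6, and Podn changed by -0.09 from week 3 to 6.

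**Figure D3:**
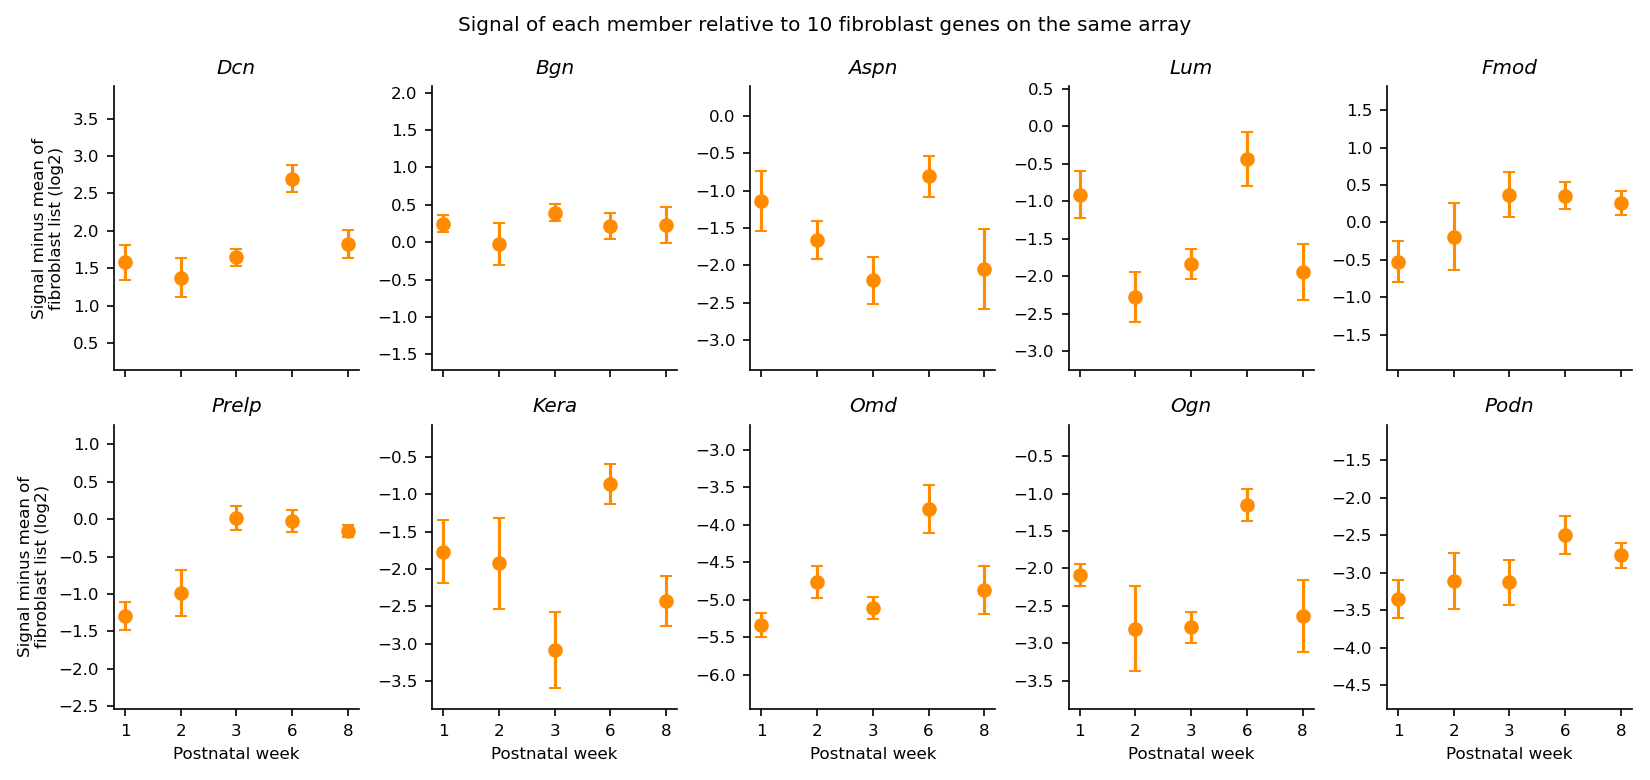
Log2 signal of each gene less the mean of the 10 fibroblast genes on the same array (vertical axis) by postnatal week. Points are means and bars SDs over arrays (n = 5 in week 2, n = 6 otherwise), and each panel spans the same number of log2 units, so that changes but not levels compare between panels. Bgn stays within -0.02 to 0.39, whereas Kera spans -3.08 to -0.86.

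The log2 ratio of a pair of genes on the same array shows whether they changed by unequal amounts. For 6 pairs, set by class or by place in the genome, the change of this ratio was tested in each of the 4 successive comparisons with a two-sided exact permutation test and adjustment over these 24 tests. A p of 0.00216 is the smallest that 6 against 6 arrays allow. In all, 12 of 24 passed, and the same 12 passed without the tied week 2 array. Without that array and both tied week 6 arrays, 11 passed, each with an adjusted p of 0.0208, and Lum over Kera from week 3 to 6 did not (adjusted p = 0.0571). The tests printed below count all arrays, whereas the week 2 means and SDs leave out the tied array.

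Dcn and Bgn, the close relatives, moved by like amounts in the early steps and apart later. The ratio of Dcn to Bgn was 1.33 ± 0.18 in week 1, 1.39 ± 0.23 in week 2 and 1.25 ± 0.14 in week 3. It was 2.48 ± 0.21 in week 6 and 1.59 ± 0.24 in week 8. All week 6 arrays were above all arrays of weeks 3 and 8. The ratio rose by 1.22 from week 3 to 6 and fell by 0.89 from week 6 to 8 (exact permutation test, adjusted p = 0.00577 for each). Bgn over Aspn rose by 0.95 from week 2 to 3 (exact permutation test, adjusted p = 0.00577), from 1.64 ± 0.17 with no overlap. In the later steps it ran from 2.59 ± 0.32 in week 3 to 1.02 ± 0.21 in week 6 and 2.27 ± 0.38 in week 8, with no overlap in either step. These later steps were -1.57 and 1.25 (exact permutation test, adjusted p = 0.00577 for each). Their signs were opposite to those of Dcn over Bgn. Both ratios hold Bgn, and a change of Bgn alone moves them in opposite directions, so they are not separate results.

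Lum and Fmod, which share a binding region on collagen, differed in 3 of 4 steps. Lum over Fmod was -0.39 ± 0.53 in week 1 and -2.09 ± 0.58 in week 2. It stood at -2.21 ± 0.27 at 3 weeks of age, -0.80 ± 0.47 at 6 weeks and -2.21 ± 0.50 at 8 weeks. The means of weeks 1 and 6 stood above those of the other weeks. The steps were -1.70 from week 1 to 2, 1.42 from week 3 to 6 and -1.41 from week 6 to 8 (exact permutation test, adjusted p = 0.00577 for each).

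Lum and Kera, neighbours on chromosome 10, differed in the first 3 steps, by -1.21, 1.60 and -0.82 (exact permutation test, adjusted p = 0.00945, 0.00945 and 0.0216), with overlapping arrays in each. The third of these is the step that did not pass without the tied arrays. From week 6 to 8, where both fell, the change of their ratio was 0.06 (adjusted p = 0.892 in the exact permutation test). Ogn and Omd, neighbours on chromosome 13, differed from week 1 to 2 by -1.29 (exact permutation test, adjusted p = 0.00577), where the signal of Omd was low. Prelp and Fmod lie near each other on chromosome 1. For them no step passed, and the largest, 0.44 from week 2 to 3, had an adjusted p of 0.0679 in the exact permutation test. The ratio of Prelp to Fmod was -0.36 ± 0.24 at 3 weeks of age, -0.38 ± 0.09 at 6 weeks and -0.42 ± 0.11 at 8 weeks.

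**Figure D4:**
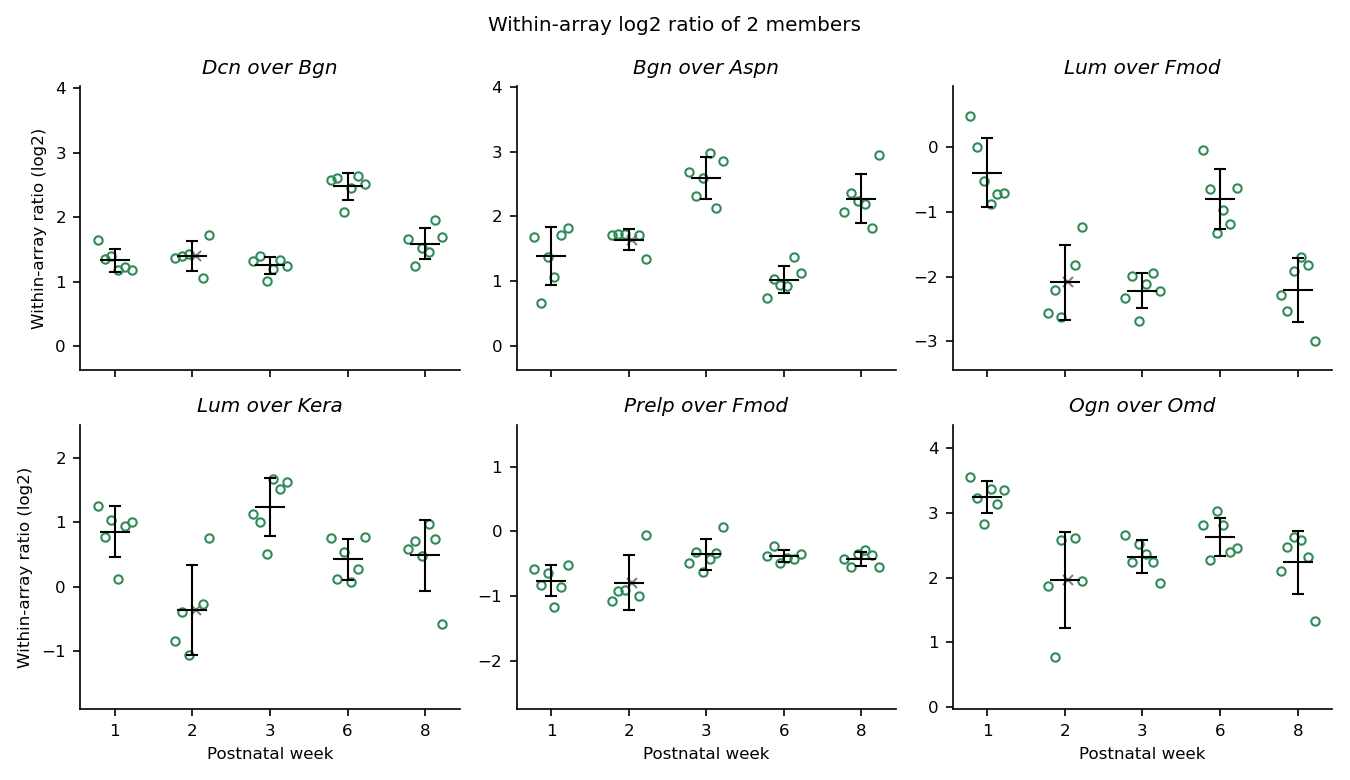
Within-array log2 ratio of 6 pairs of genes (vertical axis) by postnatal week. Circles are arrays, black bars are the mean and SD, and the grey cross is the week 2 array that equals its week mean; only changes of a ratio between weeks can be read, not its level. Dcn over Bgn peaks in week 6 at 2.48, where Bgn over Aspn is lowest at 1.02. Both ratios hold Bgn, and a change of Bgn alone moves them in opposite directions.

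The week profiles put numbers on these likenesses, as descriptions. The root mean square difference between the centred week means of Fmod and Prelp was 0.19, the smallest among the 10 genes, and that of Lum and Ogn was 0.23. Kera and Prelp were farthest apart, at 0.99. Among the other 19928 genes, the nearest profile to Lum was that of Gria3 (0.09) and then Zdhhc2 (0.09), to Dcn Selenop (0.06) and Cdc14a (0.07), and to Bgn Grik5 (0.05) and Rab3a (0.07). For Fmod they were Laptm5 (0.06) and Cp (0.09), for Prelp Nbl1 (0.09) and Fmo2 (0.12), and for Ogn Ankrd12 (0.07) and Nectin3 (0.09). For Kera they were Zfp979 (0.17) and Marcks (0.19), for Aspn Mirlet7f-1 (0.10) and Tnmd (0.11), for Omd Crebrf (0.04) and Sec11c (0.05), and for Podn Stim2 (0.04) and Fzd7 (0.04). Each likeness rests on 5 week means.

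Of 9 other genes of the family, 8 were measured. Epyc, the neighbour of Kera and a proteoglycan of cartilage, fell by 1.35 from week 1 to 2 (SE 0.28, 2.55-fold, adjusted p = 0.000149) and rose by 1.10 from week 3 to 6 (SE 0.28, 2.15-fold, adjusted p = 0.00168). Optc, or opticin, a protein of the vitreous, fell by 2.18 from week 1 to 2 (SE 0.45, 4.52-fold, adjusted p = 0.000132) and rose by 1.77 from week 2 to 3 (SE 0.45, 3.40-fold, adjusted p = 0.00219). The means of Epyc and Optc were also higher in weeks 1 and 6 than in weeks 2, 3 and 8. For Optc, weeks 3 and 6 were near each other, at 7.04 ± 0.94 and 7.14 ± 0.44. Chad, or chondroadherin, rose by 1.20 from week 2 to 3 (SE 0.26, 2.30-fold, adjusted p = 0.000563). Ecm2, which lies beside Aspn, changed by -0.65 from week 1 to 2, below the fold threshold. Chadl, Nyx, Podnl1 and Nepn were called in no successive comparison, with changes between -0.66 and 0.58. In week 2 versus 1, 2 of 8 were lower and none higher, and in week 8 versus 6 none was called.

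The next list held 29 genes that build and sulfate the sugar chains. Chsy3, a chondroitin synthase, fell by 1.70 from week 1 to 2 (SE 0.20, adjusted p = 3.83e-08) and rose by 1.07 from week 2 to 3 (SE 0.20, adjusted p = 7.6e-05). Dse, the epimerase that turns chondroitin into dermatan sulfate, fell by 1.38 from week 1 to 2, and Xylt2, which starts the chain on the protein, fell by 1.23 from week 3 to 6 with no overlap of arrays. In all, 3 of 29 were lower in week 2 versus 1, a share near the background of 7.73%, with 2 higher in week 3 versus 2, 1 lower in week 6 versus 3 and none called in week 8 versus 6.

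Of 10 collagen genes that form or decorate fibrils, 7 were lower in week 2 versus 1, and none was higher. Col12a1 fell by 1.75 (SE 0.32, adjusted p = 2.39e-05), Col3a1 fell by 1.44 (SE 0.26, adjusted p = 2.11e-05) and Col6a3 fell by 1.25 (SE 0.24, adjusted p = 5.92e-05). Of the 10, Col1a1 and Col1a2 are also in the fibroblast list. Col12a1 alone was called from week 2 to 3, where it rose by 1.19, Col3a1 alone was called from week 3 to 6, where it fell by 1.04, and none of the 10 was called in week 8 versus 6, where Lum, Ogn, Kera and Aspn fell. Whether the lists differ in these steps was not tested.

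Among 8 proteases that cleave or process matrix proteoglycans, 3 were lower in week 2 versus 1, namely Adamts5 at -1.59, Mmp2 at -1.46 and Mmp14 at -1.02. Mmp2 rose by 1.05 from week 2 to 3, and Mmp3, stromelysin, rose by 1.10 from week 3 to 6. Among 11 ligands and receptors that decorin, biglycan and their relatives bind, Tgfb2, Bmp2, Bmp4 and Tlr4 were lower and Egfr higher in week 2 versus 1. Bmp2 fell by 1.83 (SE 0.23, adjusted p = 1.71e-07) and rose by 1.45 in the next step (SE 0.23, adjusted p = 1.62e-05). Bmp4 fell by 1.56 and rose by 1.07, Tgfb2 fell by 1.34 and rose by 1.07, and Egfr rose by 1.03 from week 1 to 2 (SE 0.14, adjusted p = 4.29e-07). Lrp1, a receptor that takes up decorin, was the fourth to rise from week 2 to 3, by 1.27. Tgfb1 changed by 1.00 from week 2 to 3 (SE 0.10, adjusted p = 3.44e-08), at a fold of 1.99 and so not called. Tlr4, which biglycan can activate, rose by 1.00 from week 3 to 6, and none of the 11 was called in week 8 versus 6.

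Of 5 large proteoglycans, Vcan, or versican, fell by 1.35 from week 1 to 2 (SE 0.22, adjusted p = 4.65e-06), and Hspg2, or perlecan, fell by 1.70 from week 3 to 6 (SE 0.22, adjusted p = 3.3e-07). The arrays did not overlap in either case. None of the 5 was called in week 3 versus 2 or in week 8 versus 6.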

How the data were processed

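Total RNA from single sclerae of 30 Balb/cJ mice, 6 per week, was hybridized to Mouse Gene 1.0 ST arrays. The log2 values of 35556 transcript clusters were used as deposited by the authors. Robust multiarray averaging, with scan date removed as a batch, is given in the methods of the study. GCRMA in Partek 6.5 is given in the submitters' processing notes instead, and the scale of the fold changes depends on which was used. No table used here ties arrays to scan dates, so a block for scan date could not be fitted. Groups and replicate numbers come from the sample labels, and each replicate was another mouse. Array medians lay between 6.151 and 6.369, and the number of arrays limits the precision.

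Transcript clusters were named through the annotation of the platform, of which 21789 had 1 gene symbol, 1621 several and 12146 none. limma 3.58.1 in R 4.3.3 was fitted with 1 mean per week, without a block, and p values were adjusted by Benjamini and Hochberg within each comparison. SEs are those of the fit, and values after ± are SDs over arrays. Ratios of pairs were tested by exact permutation over 924 arrangements with scipy 1.17.1 in Python 3.11.15, and the scripts were tested on simulated data.

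The members and lists were chosen with earlier results of these data known. Named were all members, the other family members, the leading called genes and those the study names in each pathway list, and the 2 genes of nearest profile. Alternatives covered normalization, array weights, filters, thresholds, moderation, the replicate block, an array spread covariate and leaving out each array. The fits and tests without the tied arrays were chosen after seeing the data.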

Additional observations from a re-analysis of the deposited data

Results flagged for a closer look

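In 4 of 50 sets of arrays tested, 1 for each gene and week, a single array stood far from the others by the ratio of its gap to the range of its week, where chance gives about 1 in 20. All 4 were the array of week 8 replicate 6, the lowest of its week. Its log2 signal was 10.54 for Dcn against a week 8 median of 11.67, 6.45 for Lum against 7.97, 5.53 for Ogn against 7.28 and 5.91 for Aspn against 7.91. The same array was the lowest of week 8 for the other 6 genes, and for 8 of 13 cell type lists, among them fibroblast at 9.03, pigment epithelium at 5.43, endothelium at 6.52, smooth muscle at 7.05 and photoreceptor at 5.63. For surface epithelium it was the highest of week 8, at 11.30. The part of these tissues in its position was not tested. The 4 genes share 1 array, so these are not 4 separate events. Without this array, Lum and Ogn were still called lower in week 8 versus 6, at -1.09 and -1.02, while Aspn was not, at -0.74, and Dcn was called in neither case.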

How the results depend on the processing

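The number of arrays and the 3 tied arrays limit the precision, and it is not known which of the named methods made the values. Of 436 member changes recomputed under other settings, 401 kept their direction and side of the threshold, 12 lost the call, 18 gained it and 5 turned direction. All 40 were the same in a fit of 2 weeks only, without moderation, and with transcript clusters of 1 gene symbol. They were also the same without the tied week 2 array and with a term for the tied week 6 pair. Above the median signal 36 were the same, and Omd was not in that fit. With the replicate number as a block, all 40 were the same too, and the pair comparisons past the threshold went from 12 to 0 by a sign-flip of paired ratios, which 6 pairs could not pass after adjustment (smallest adjusted p 0.0577) and which therefore says nothing on stability. Same-numbered arrays of different weeks were not paired, since 13 of 56 correlations of their deviations were above 0.1 (median 0.02). Without all 3 tied arrays, 11 pair comparisons passed in place of 12. The cause of the following differences was not tested.

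Without a fold threshold, 10 members were called lower in week 2 versus 1 and 8 higher in week 3 versus 2. The comparison of week 6 versus 3 then had 3 lower and 3 higher, week 6 versus 1 had 1 lower and 1 higher, week 8 versus 2 had 3 higher, and week 8 versus 3 had 2 lower. The share of all transcript clusters called without a fold threshold is not given here, so these counts cannot be set against a background. With the array spread as a covariate, 1 was lower in week 2 versus 1 and 1 higher in week 3 versus 2, while 4 were higher in week 6 versus 3 and 0 in week 8 versus 2. That covariate also turned Ogn (-0.163) and Aspn (-0.619) in week 3 versus 2, and Fmod (-0.00695) and Prelp (-0.0793) in week 8 versus 6. Array weights turned Fmod in week 8 versus 6 (-0.00687) and ended the call of Aspn there. Median centring gave 1 lower in week 6 versus 1 and ended the call of Aspn in week 8 versus 6, and quantile normalization gave 0 higher in week 8 versus 2, ended the call of Dcn in week 3 versus 2 and turned Prelp less Fmod in week 2 versus 1 (0.0132). A mean over transcript clusters was not run, since each member has 1.

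With 1 array left out at a time, 1177 of 1200 member changes were the same. Members called higher ranged from 4 to 6 in week 3 versus 2 and from 1 to 2 in week 6 versus 3. They ranged from 0 to 1 in week 3 versus 1, from 4 to 7 in week 6 versus 2 and from 0 to 1 in week 8 versus 2. Members called lower ranged from 0 to 1 in week 6 versus 3, from 3 to 5 in week 8 versus 6 and from 0 to 1 in week 6 versus 1. Changes that turned direction were small: Podn in week 6 versus 3 ranged from -0.175 to 0.0123, and in week 8 versus 6 Bgn ranged from -0.0271 to 0.377, Fmod from -0.113 to 0.217 and Prelp from -0.127 to 0.153. Among pairs, Dcn less Bgn in week 2 versus 1 ranged from -0.0019 to 0.13, Lum less Fmod in week 3 versus 2 from -0.233 to 0.0438, Lum less Kera in week 8 versus 6 from -0.0363 to 0.274, and Prelp less Fmod from -0.177 to 0.0299 in week 2 versus 1 and from -0.0799 to 0.0601 in week 6 versus 3.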
